A study of Homo sapiens with 18 samples.

Results

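Clone 9-D, a line grown from human embryonic stem cells of the established line H9 (WA09) after Cas9 editing of ZNF263, was compared with unedited H9 in its autosomal genes. The comparison was set by the labels and used 6 of the 18 RNA sequencing libraries of the series, 3 of H9 wild type and 3 of clone 9-D, without pooling 9-D with the other H9 clone. The series asks how ZNF263 acts on pluripotency in the lines H1 and H9. The labels give 9-D as a homozygous knockout of ZNF263, and give no treatment, time in culture, date or batch. They do not state which part of the gene was edited or whether the 3 libraries of a group came from separate cultures, so the tests measure the spread between these libraries, which may be technical. The 3 libraries of the other H9 clone, 9-1, also entered the fit and its estimate of this spread. All 3 edited libraries came from 1 clone, and what belongs to this clone and what follows from the loss of ZNF263 cannot be told apart. RNA was polyadenylated RNA from whole cultures, in which fewer cells of a type and less RNA per cell cannot be told apart.

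ZNF263 encodes a DNA-binding protein with a SCAN domain, a KRAB domain and a row of C2H2 zinc fingers, which binds purine-rich sequence. Human embryonic stem cells in standard culture keep a primed state of pluripotency, which resembles the epiblast shortly before gastrulation and depends on FGF and on activin or NODAL signalling. POU5F1, SOX2 and NANOG are at the centre of its transcription network. Genes of the earlier, naive state are mostly silent in these cultures, and a small share of cells in them can turn on genes of the primitive streak or the germ layers.

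Library totals were 14.2 to 15.996 M counts in wild type and 14.3 to 18.0 M counts in 9-D, and a count of 0 allowed up to 3 counts, or 0.167 to 0.212 CPM over the 6 libraries. Levels are counts per 1 M counts of the library (CPM), with library sizes scaled by the trimmed mean of M values (TMM), given for libraries 1, 2 and 3 in order, and they are not scaled for gene length. A gene is called where the p of edgeR's quasi-likelihood test, adjusted by Benjamini-Hochberg over all 15411 genes tested, was under 0.05. Log2 fold changes are 9-D over wild type. A gene named below as higher or lower passed this test, and its call held in each of 13 other ways of processing the data that tested it unless the text says otherwise. Counts over gene lists also hold calls that did not: of 462 called genes in the lists and in runs of neighbours, 281 were called in all of them. Over all autosomal genes tested 11.2% were called higher and 12.2% lower, or 23.4%. Counts in a list are to be read beside these shares. The first principal component held 50.2% of the variance and set wild type apart from both H9 clones, and the second held 9.08%. All 10 genes used to check the cell type, POU5F1, SOX2, NANOG, LIN28A, SALL4, TDGF1, DNMT3B, PODXL, ZFP42 and L1TD1, were detected in every library. The call of L1TD1 as higher was lost in 5 of the 13 alternatives, among them without wild-type replicate 1 or 3 or 9-D replicate 1 or 2.

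The edited gene kept most of its RNA. ZNF263 stood at 39.9, 44.3 and 42.7 CPM in wild type and 35.3, 35.3 and 37.8 CPM in 9-D. All 3 libraries of 9-D were below all 3 of wild type. The log2 fold change was -0.23 (SE 0.0731), with an adjusted p of 0.0204 in edgeR (quasi-likelihood, Benjamini-Hochberg). The call did not hold when wild-type replicate 2 or 3 or 9-D replicate 1 or 2 was left out, with adjusted p of 0.0615 to 0.0851 in edgeR (quasi-likelihood, Benjamini-Hochberg). Counts over a whole gene do not show a small deletion or a shift of the reading frame, so this level does not check the loss of the protein. Of all autosomal genes tested, 23.4% were called. Among 24 tested genes near ZNF263 in the annotation 29.2% were called, 4 higher and 3 lower, with a median log2 fold change of -0.01. Among them TIGD7, a gene of the transposase-derived TIGD family, stood at 9.72, 8.58 and 8.70 CPM in wild type and 11.4, 14.2 and 12.1 CPM in 9-D. MMP25, a membrane-anchored metalloprotease, stood at 51.6, 45.3 and 45.8 CPM in wild type and 32.3, 35.4 and 40.1 CPM in 9-D. Of 42 tested genes that encode a SCAN domain, the dimerization domain that ZNF263 carries, 1 was higher and 6 were lower. ZNF263 was among the 6, and the median was -0.05. The calls were 16.7% of the SCAN genes, under the 23.4% of all autosomal genes tested. Without wild-type replicate 3, 4 SCAN genes in all were called.

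Clone 9-D differed from wild type in many genes by small amounts and in few genes by large ones. Of 14577 autosomal genes tested, 3412 were called (23.4%), 1629 higher (11.2%) and 1783 lower (12.2%). Of the calls, 71.3% were changes under 1.5-fold, and the median absolute log2 fold change of called genes was 0.39. At least 2-fold changes were called for 414 genes (2.84%), 205 higher (1.41%) and 209 lower (1.43%). At least 4-fold changes were 51 rises and 31 falls, and at least 8-fold changes were 15 rises and 10 falls. The 3 libraries of one group lay wholly above or below those of the other in 5210 genes (35.7%), which included 3205 of the called genes. The median log2 fold change over all tested autosomal genes was -0.01.

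**Figure D1:**
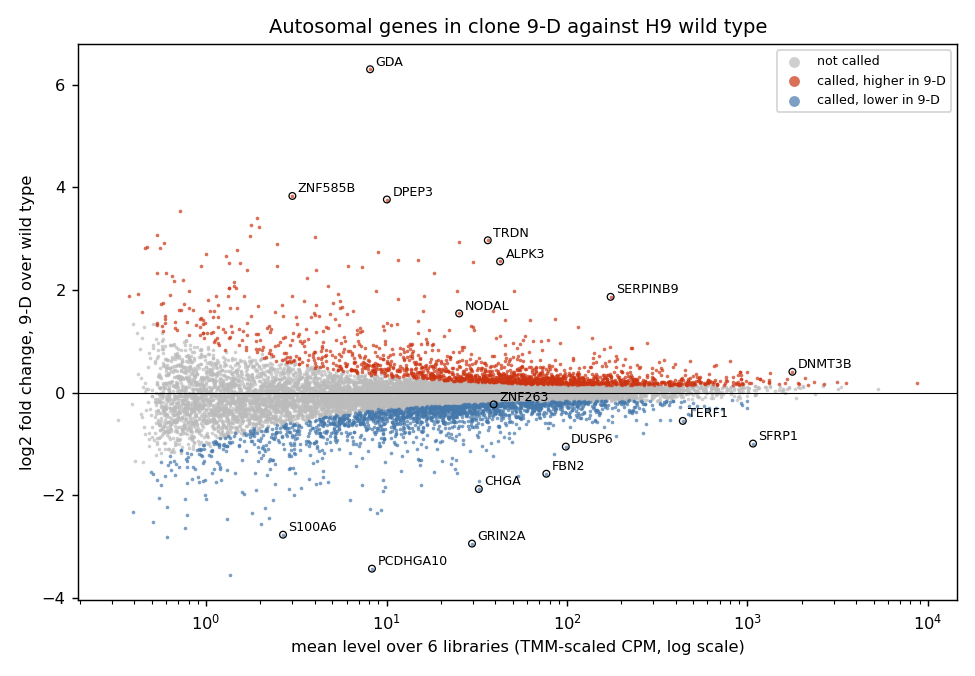
Each point is an autosomal gene, with its mean level over the 6 libraries in TMM-scaled CPM on a log axis and its log2 fold change of 9-D over wild type on the vertical axis, and red and blue points are called higher and lower. Of the 14577 genes tested, 13 with 3 or fewer summed counts in a group are not drawn, since their fitted change has no fixed size. Most calls lie within 2-fold of no change, while GDA lies at a log2 fold change of 6.30 and PCDHGA10 at -3.43.

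The balance of rises and falls differed with level. Among 2272 genes with a mean of at least 100 CPM, 458 were called higher and 194 lower. In the 7496 genes from 10 to 100 CPM the counts were 828 higher and 1018 lower, and in the 3880 genes from 1 to 10 CPM they were 290 higher and 516 lower. Under 1 CPM, 53 were called higher and 55 lower among 929 genes. Of 667 tested long noncoding RNA genes 41 were higher and 57 lower, against 1571 and 1687 of 13406 protein-coding genes. These were 14.7% of the long noncoding and 24.3% of the protein-coding genes tested. Changes of at least 2-fold made up 5.997% of the long noncoding genes tested and 2.66% of the protein-coding genes tested. Under 1 CPM all 108 calls were at least 2-fold, against 70 of 1846 calls from 10 to 100 CPM. The kinds of gene were not matched for level, so these shares do not show that long noncoding genes changed more.

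A handful of genes were expressed in wild type and close to silent in 9-D. Across the autosomes 7 genes held at least 60 counts over the wild-type libraries and 3 or fewer over those of 9-D, and 0 genes showed the opposite pattern. ZNF667, a KRAB zinc finger gene of chromosome 19, held 134, 125 and 126 counts in wild type and 0 in each library of 9-D. This was at least 139-fold lower, against 3 counts over the group. ZNF667-AS1, its antisense neighbour, went from 66, 45 and 76 counts to 0, at least 67.7-fold lower. The labels do not state that strand was kept, so reads of ZNF667 and of its antisense gene may not be separated.

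ZNF471, a nearby zinc finger gene on the same chromosome, held 24, 17 and 32 counts in wild type and 1, 0 and 0 in 9-D, 79.3 times less (95% interval from counting error, 13.8 to 3173). ZNF583, which lies next to ZNF667 on the other side, did not share the pattern, with 151 summed counts in wild type and 175 in 9-D. LINC00664, a long noncoding RNA of chromosome 19, held 97, 96 and 110 counts in wild type and 0, 0 and 1 in 9-D. The ratio of wild type to 9-D was 329 (58.6 to 13037). LOC100134868, a noncoding gene of chromosome 20, went from 23, 31 and 23 counts to 0 in each library, at least 27.9-fold lower.

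PUS7L, a pseudouridine synthase-like gene, and IRAK4, the kinase that carries signals from Toll-like and interleukin-1 receptors, are neighbours on chromosome 12, and both were close to silent in 9-D. PUS7L held 123, 80 and 90 counts in wild type and 0, 1 and 0 in 9-D, a ratio of 318 (56.7 to 12608). IRAK4 held 39, 41 and 56 counts in wild type and 0, 1 and 0 in 9-D, a ratio of 148 (26.1 to 5875). The next gene past IRAK4, TWF1, an actin-binding twinfilin, held 1352 and 1519 summed counts, and TMEM117 beyond it held 108 and 105. Reads were thus lost from PUS7L and IRAK4 and not from TWF1 or TMEM117. In the other H9 clone, 9-1, the 7 genes held 0 to 5 summed counts each.

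The stretch between the annotated extents of PUS7L and IRAK4, which lie head to head, is shown because both genes beside it were close to silent. It is 160 bases long (chr12:43758791-43758950, GRCh38.p14, plus strand, the strand of IRAK4, RefSeq), and 65.0% of its bases are G or C. It holds no match on either strand to GGGAGGA, a core of the purine-rich motif reported for ZNF263, which 16.01% of the 250-base windows before RefSeq gene starts hold.
PUS7L to IRAK4: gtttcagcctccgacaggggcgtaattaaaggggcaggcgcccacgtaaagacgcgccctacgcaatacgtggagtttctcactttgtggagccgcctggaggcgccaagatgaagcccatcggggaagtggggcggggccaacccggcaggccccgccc

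The genes with the largest changes were taken from called genes whose groups did not overlap and whose mean was at least 5 CPM in the higher group. Groups that lie apart were thus a condition of this choice and are no further support for these changes. Among the rises GDA, guanine deaminase, which turns guanine into xanthine, stood at 0.130, 0.208 and 0.247 CPM in wild type and 15.7, 17.1 and 15.2 CPM in 9-D, a log2 fold change of 6.30 (SE 0.221). ZNF585B, a zinc finger gene, stood at 0.324, 0.346 and 0.493 CPM in wild type and 6.85, 4.75 and 5.28 CPM in 9-D, a log2 fold change of 3.83 (SE 0.287). DPEP3, a membrane dipeptidase known from testis, stood at 0.713, 1.66 and 1.73 CPM in wild type and 16.5, 20.5 and 19.2 CPM in 9-D, a log2 fold change of 3.76 (SE 0.178). In each of these the lowest library of 9-D was far above the highest of wild type. GDA held 9 summed counts in wild type and 770 in 9-D, so the size of its change is uncertain.

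TRDN encodes triadin, which holds the calcium release complex of the sarcoplasmic reticulum, and stood at 6.81, 9.82 and 8.14 CPM in wild type and 67.3, 67.1 and 59.2 CPM in 9-D. ALPK3, an alpha kinase of the heart, stood at 11.3, 14.6 and 11.3 CPM in wild type and 76.9, 68.6 and 72.6 CPM in 9-D. MYH14, a nonmuscle myosin heavy chain, stood at 4.47, 7.06 and 5.98 CPM in wild type and 42.0, 44.0 and 48.6 CPM in 9-D. The log2 fold changes were 2.97 (SE 0.103), 2.56 (SE 0.0925) and 2.94 (SE 0.110).

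EDNRB, the endothelin receptor B of neural crest and endothelium, stood at 1.62, 2.49 and 2.90 CPM in wild type and 16.1, 14.9 and 15.96 CPM in 9-D. THUMPD3, a tRNA guanosine methyltransferase, stood at 4.08, 4.36 and 4.32 CPM in wild type and 25.5, 28.0 and 23.4 CPM in 9-D. PRKCDBP, also called CAVIN3, a caveola coat protein, stood at 3.82, 3.81 and 2.34 CPM in wild type and 18.3, 22.2 and 19.2 CPM in 9-D. All 3 were far above wild type in each library of 9-D. FAM109B, which encodes a protein of endosome trafficking, stood at 0.648, 0.969 and 0.987 CPM in wild type and 6.96, 6.52 and 7.89 CPM in 9-D. The log2 fold changes of EDNRB, THUMPD3, PRKCDBP and FAM109B were 2.74, 2.59, 2.58 and 3.03. Adjusted p of the 10 genes named in the last paragraphs, from GDA to FAM109B, lay between 1.68e-22 and 2.26e-12 in edgeR (quasi-likelihood, Benjamini-Hochberg).

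Windows before the starts of 3 of these genes are shown as examples of these rises, with the GGGAGGA motif or its reverse complement, TCCTCCC, in capitals. Each covers the 250 bases before the gene's start on the gene's strand in GRCh38.p14 (RefSeq). DPEP3 (chr16:67980500-67980749, minus strand) and ALPK3 (chr15:84817106-84817355, plus strand) each held 1 match, on the opposite strand. ZNF585B (chr19:37210537-37210786, minus strand) held none. Of all 250-base windows before RefSeq gene starts 16.01% hold the motif, and these 3 windows do not show its share among the rises. A match is a description of the letters, and no binding was measured here.
DPEP3: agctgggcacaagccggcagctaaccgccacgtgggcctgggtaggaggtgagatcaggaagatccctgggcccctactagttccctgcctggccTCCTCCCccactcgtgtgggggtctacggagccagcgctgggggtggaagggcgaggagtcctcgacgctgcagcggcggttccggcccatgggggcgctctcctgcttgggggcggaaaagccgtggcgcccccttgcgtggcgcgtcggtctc
ALPK3: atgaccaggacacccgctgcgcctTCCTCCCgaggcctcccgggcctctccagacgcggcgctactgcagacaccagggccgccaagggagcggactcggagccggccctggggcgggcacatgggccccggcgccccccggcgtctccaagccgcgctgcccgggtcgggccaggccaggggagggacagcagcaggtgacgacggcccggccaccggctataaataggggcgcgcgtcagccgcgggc
ZNF585B: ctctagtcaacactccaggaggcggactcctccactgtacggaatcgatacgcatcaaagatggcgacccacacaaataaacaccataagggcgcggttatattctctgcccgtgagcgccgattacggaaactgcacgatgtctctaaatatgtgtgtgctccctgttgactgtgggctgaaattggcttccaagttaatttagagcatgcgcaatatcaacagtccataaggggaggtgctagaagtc
Windows of this table matched 11401 of the 14577 tested autosomal genes (78.2%). That is under 80%, so a comparison of the motif between genes that rose and genes that fell is void and its shares are not given.

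Among the falls PCDHGA10, a protocadherin of the gamma cluster, stood at 15.2, 14.3 and 16.1 CPM in wild type and 1.41, 1.27 and 1.52 CPM in 9-D, a log2 fold change of -3.43 (SE 0.169). GRIN2A, a subunit of the NMDA glutamate receptor, stood at 79.2, 33.5 and 45.3 CPM in wild type and 8.09, 5.88 and 6.49 CPM in 9-D, a log2 fold change of -2.94 (SE 0.186). Wild-type replicate 1 was high in GRIN2A, and all 3 libraries of 9-D were still below the lowest of wild type. CHGA, chromogranin A of secretory granules, stood at 49.8, 59.7 and 43.6 CPM in wild type and 13.9, 13.4 and 14.3 CPM in 9-D. GPM6A, a neuronal membrane glycoprotein, stood at 5.12, 6.09 and 4.56 CPM in wild type and 1.19, 2.27 and 0.971 CPM in 9-D.

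SCN4B, a beta subunit of sodium channels, stood at 16.1, 14.7 and 15.5 CPM in wild type and 2.72, 3.97 and 2.97 CPM in 9-D. SLC5A12, a sodium-coupled lactate transporter, stood at 12.96, 13.9 and 13.4 CPM in wild type and 2.60, 3.40 and 2.43 CPM in 9-D. SLCO1A2, an organic anion transporter, stood at 15.1, 16.8 and 13.3 CPM in wild type and 3.96, 3.97 and 3.95 CPM in 9-D. SCN4B, SLC5A12 and SLCO1A2 had log2 fold changes of -2.28, -2.27 and -1.92. ALG10B, a glucosyltransferase that builds the sugar precursor of N-glycans, stood at 16.3, 14.2 and 13.8 CPM in wild type and 2.94, 2.76 and 3.03 CPM in 9-D. C17orf96, also called EPOP, a partner of Polycomb repressive complex 2, stood at 11.9, 9.89 and 8.57 CPM in wild type and 2.04, 3.19 and 2.003 CPM in 9-D. Adjusted p of the 9 genes from PCDHGA10 to C17orf96 lay between 4.70e-18 and 1.97e-07 in edgeR (quasi-likelihood, Benjamini-Hochberg). Reads of PCDHGA10 and ALG10B can be split with near-identical copies (the other gamma protocadherins, which share exons, and ALG10), so their levels are uncertain.

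**Figure D2:**
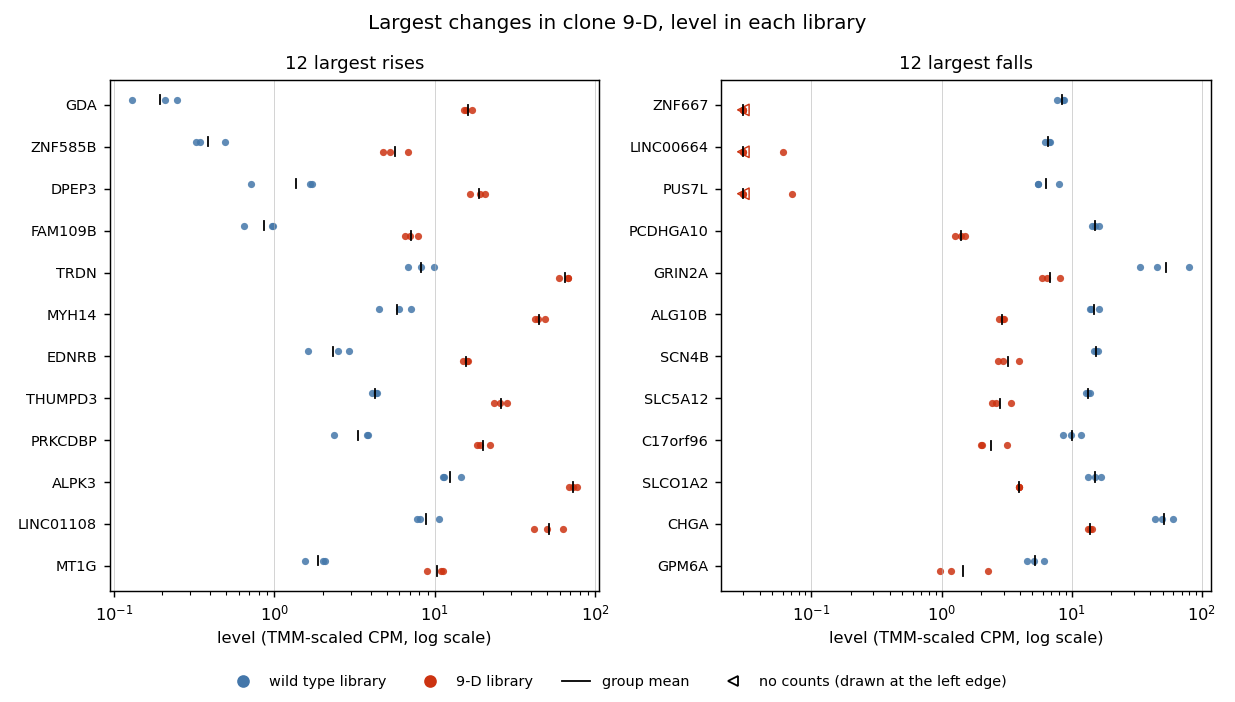
Level in each wild-type library (blue) and each 9-D library (red) of the 12 largest rises (left) and the 12 largest falls (right) among called genes with a mean of at least 5 CPM in the higher group and groups that do not overlap, in TMM-scaled CPM on a log axis, with the group mean as a black tick and libraries without counts drawn as open triangles at the left edge. Of the 24 genes, ZNF667 had no counts in 9-D.

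Metallothioneins, small cysteine-rich proteins that bind zinc and copper, rose as a block. On chromosome 16 the 6 neighbouring tested genes MT2A, MT1E, MT1F, MT1G, MT1H and MT1X were all called higher, with a median log2 fold change of 1.89. MT1X stood at 5.06, 8.16 and 7.46 CPM in wild type and 27.9, 22.6 and 25.9 CPM in 9-D. MT1G stood at 2.07, 2.01 and 1.54 CPM in wild type and 10.9, 8.92 and 11.2 CPM in 9-D. MT1F stood at 1.49, 0.761 and 1.54 CPM in wild type and 5.43, 3.12 and 5.58 CPM in 9-D. In these 3 the lowest library of 9-D was above the highest of wild type, with log2 fold changes of 1.89 (SE 0.121), 2.47 (SE 0.168) and 1.89 (SE 0.256). MT2A rose by 1.09 on the log2 scale and MT1H by 2.39. The libraries overlapped in MT1E, and its call was lost without wild-type replicate 1 or 3 or 9-D replicate 3, with adjusted p of up to 0.0911 in edgeR (quasi-likelihood, Benjamini-Hochberg). Adjusted p ran from 6.98e-15 for MT1X to 0.0112 for MT1E in edgeR (quasi-likelihood, Benjamini-Hochberg). The genes are near-identical copies, so reads may be split between them.
The window before MT1X is shown because the block moved together, with matches to the core of the metal response element, TGCACNC or TGCGCNC on either strand, in capitals. It covers chr16:56682220-56682469 on the plus strand of GRCh38.p14 (RefSeq). It held 4 matches, and 24.8% of all 250-base windows before RefSeq starts hold at least 1.
MT1X: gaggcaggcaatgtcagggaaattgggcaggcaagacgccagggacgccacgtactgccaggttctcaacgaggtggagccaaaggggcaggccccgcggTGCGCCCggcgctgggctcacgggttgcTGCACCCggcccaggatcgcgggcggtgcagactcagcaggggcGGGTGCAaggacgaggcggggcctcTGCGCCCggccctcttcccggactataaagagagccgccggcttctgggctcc

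Besides the metallothioneins, 9 other runs of at least 5 neighbouring tested genes were called in 1 direction. Of the 56 genes in the 10 runs, 39 were called in every alternative. On chromosome 13 DCLK1, CCDC169, SPG20, SPG20-AS1 and CCNA1 were all higher, with a median log2 fold change of 1.11. DCLK1, a doublecortin-like kinase, stood at 48.8, 49.8 and 45.0 CPM in wild type and 102, 99.3 and 86.4 CPM in 9-D. SPG20, which encodes spartin, stood at 33.4, 40.5 and 37.1 CPM in wild type and 79.0, 80.1 and 79.8 CPM in 9-D. CCDC169 stood at 0.324, 0.346 and 0.308 CPM in wild type and 3.96, 2.55 and 3.95 CPM in 9-D, near the limit of 3 counts in wild type. CCNA1, a cyclin of meiosis, missed the threshold without 9-D replicate 1 (adjusted p of 0.0551 in edgeR (quasi-likelihood, Benjamini-Hochberg)). The run on chromosome 9 held TMEM2, ABHD17B, C9orf85, GDA and ZFAND5, where the median was 0.24 beside the 6.30 of GDA, and 2 of its 5 genes, GDA and ZFAND5, were called in every alternative. On chromosome 6 the run of AKAP12, ZBTB2, RMND1, ARMT1, SYNE1 and MYCT1 had a median of 0.48, with 4 of 6 genes called in every alternative. The 2 runs of lower genes lay on chromosome 1, TMEM51 to DNAJC16 with a median of -0.31 and PIK3C2B to CNTN2 with a median of -0.35, in which 1 of 5 and 2 of 5 genes were called in every alternative.

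The other 4 runs were of zinc finger genes on chromosome 19, which codes for many KRAB zinc finger repressors in clusters. Chromosome 19 had 149 genes called higher and 106 lower, and its median log2 fold change of 0.03 was the highest of the autosomes, against -0.03 for chromosome 15 at the other end. Of 241 tested zinc finger genes on it, 46 were called higher and 15 lower, with a median of 0.07. Calls in either direction made up 25.3% of them, near the 23.4% of all autosomal genes tested. ZNF649 stood at 22.9, 26.0 and 25.3 CPM in wild type and 66.6, 66.4 and 64.1 CPM in 9-D. Its neighbour ZNF577 stood at 10.3, 11.2 and 10.1 CPM in wild type and 21.9, 22.6 and 16.7 CPM in 9-D. ZNF613, next in line, stood at 6.74, 7.20 and 5.55 CPM in wild type and 16.1, 16.4 and 16.9 CPM in 9-D. They formed a run with HAS1, a hyaluronan synthase gene, and ZNF649-AS1, with a median of 1.34, in which HAS1 alone was not called in every alternative, missing without wild-type replicate 1 and without 9-D replicate 3. The run of 7 genes from ZNF766 to ZNF578 had a median of 1.27, with 5 of the 7 called in every alternative. All 7 genes from ZNF350 to ZNF836, with a median of 0.57, and all 5 from ZNF253 to ZNF486, with a median of 0.45, were called in every alternative. ZNF253 stood at 15.2, 17.1 and 18.8 CPM in wild type and 43.9, 42.8 and 39.0 CPM in 9-D. The falls held ZNF667, ZNF667-AS1 and ZNF471 and also ZNF132, which stood at 4.08, 3.81 and 3.39 CPM in wild type and 0.679, 0.567 and 0.789 CPM in 9-D. Many of these genes are near-identical copies of each other, so counts of single members are uncertain.

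**Figure D3:**
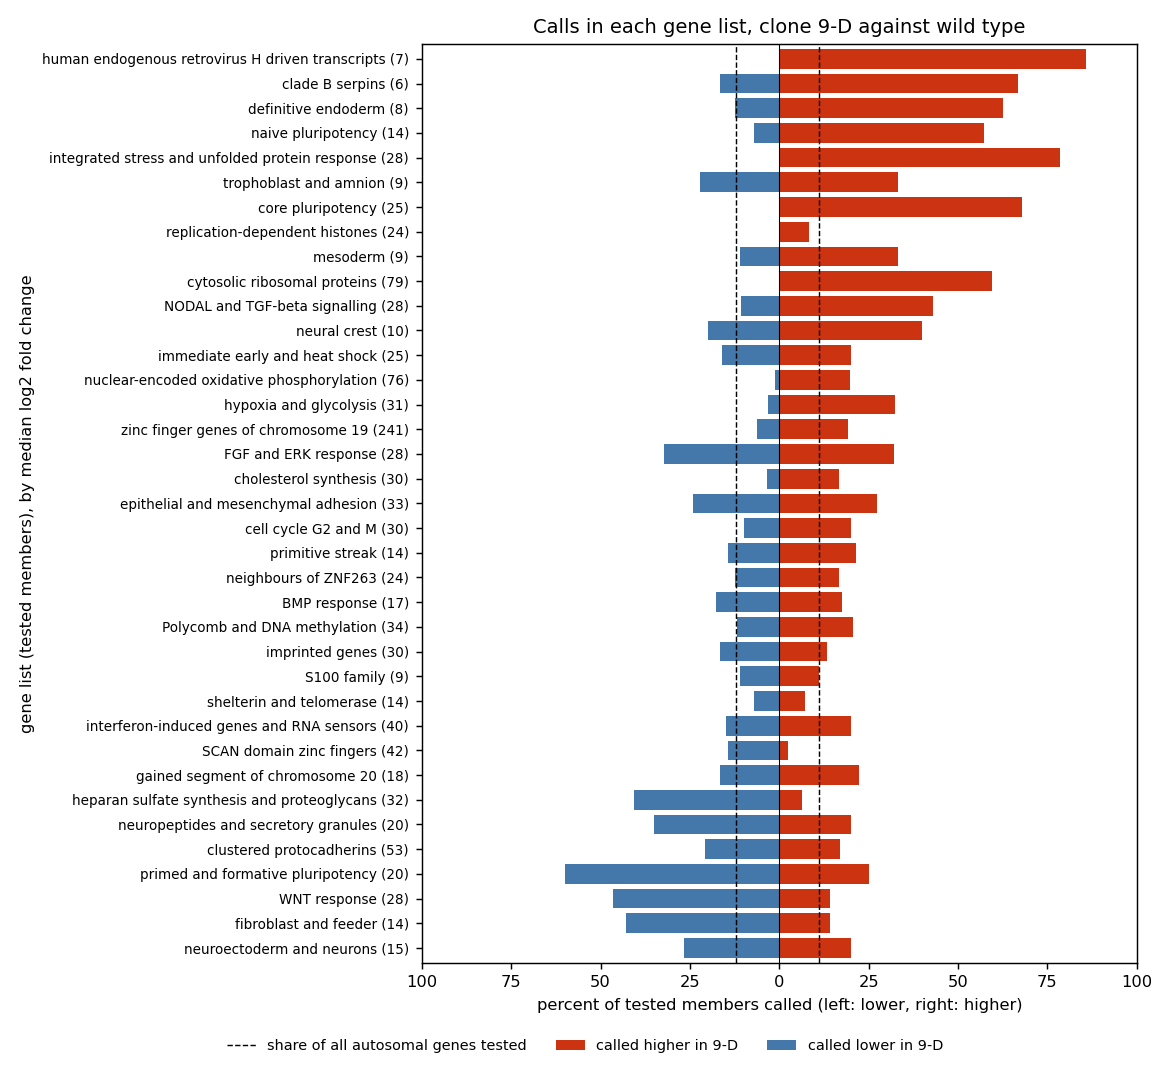
Percent of the tested members of each of 37 gene lists called higher (red, to the right) and lower (blue, to the left) in 9-D, ordered by the list's median log2 fold change, with the number of tested members in brackets. Dashed lines mark the 11.2% higher and 12.2% lower among all autosomal genes tested. The endogenous retrovirus H list is at the top with 6 of 7 members higher, and the primed pluripotency list holds the longest blue bar with 12 of 20 members lower.

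Of 25 core pluripotency genes 17 were called higher and 0 lower, against 11.2% and 12.2% of all genes tested, and the median log2 fold change was 0.21. NANOG stood at 42.9, 44.1 and 47.6 CPM in wild type and 66.0, 56.8 and 58.8 CPM in 9-D, a log2 fold change of 0.43 (SE 0.0702). ZFP42, also called REX1, stood at 119.8, 118 and 128 CPM in wild type and 234, 231 and 214 CPM in 9-D. UTF1 stood at 22.1, 17.4 and 17.0 CPM in wild type and 31.5, 33.8 and 39.6 CPM in 9-D. All 3 were higher in every library of 9-D than in any of wild type. DPPA2, whose product acts with that of DPPA4 on chromatin, stood at 1.62, 1.87 and 2.59 CPM in wild type and 6.62, 4.89 and 5.402 CPM in 9-D, while DPPA4 was higher by 0.30 on the log2 scale. GAL, the neuropeptide galanin, which marks these cells, stood at 62.3, 70.4 and 69.8 CPM in wild type and 158, 151 and 181 CPM in 9-D. TDGF1, a NODAL co-receptor, stood at 749, 804 and 801 CPM in wild type and 1065, 1019 and 1030.0 CPM in 9-D.

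POU5F1 stood at 1382, 1483 and 1369 CPM in wild type and 1497, 1561 and 1699 CPM in 9-D, a log2 fold change of 0.17 (SE 0.0564) with an adjusted p of 0.0267 in edgeR (quasi-likelihood, Benjamini-Hochberg). This call did not hold without wild-type replicate 1 or 3 or 9-D replicate 3, or with upper-quartile scaling, where adjusted p ran from 0.0595 to 0.136 in edgeR (quasi-likelihood, Benjamini-Hochberg). SOX2 stood at 409.9, 384 and 399 CPM in wild type and 388, 419 and 436 CPM in 9-D. LIN28A, an RNA-binding protein, stood at 1625, 1661 and 1654 CPM in wild type and 1835, 1773 and 1657 CPM in 9-D. The groups overlapped in both genes, and both missed the threshold, with log2 fold changes of 0.06 (SE 0.0551) and 0.09 (SE 0.0531). The de novo DNA methyltransferase DNMT3B stood at 1560.3, 1394 and 1622 CPM in wild type and 2067, 1962 and 2043 CPM in 9-D, a log2 fold change of 0.41 (SE 0.0552).

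Of 14 tested genes of the naive state, 8 were higher and 1 lower, with a median of 0.47. TBX3 stood at 0.454, 0.346 and 0.802 CPM in wild type and 2.66, 2.20 and 2.06 CPM in 9-D. DPPA3, an oocyte and germ cell factor, stood at 0.454, 0.415 and 0.555 CPM in wild type and 1.70, 1.98 and 1.70 CPM in 9-D. NLRP7, an oocyte and embryo gene, stood at 1.17, 0.969 and 1.48 CPM in wild type and 4.02, 3.12 and 3.64 CPM in 9-D. These 3 were near 1 CPM or below in wild type and above every wild-type library in all 3 libraries of 9-D. KLF4, a naive state factor, stood at 24.2, 24.01 and 27.4 CPM in wild type and 33.0, 39.5 and 47.9 CPM in 9-D. DNMT3L, a catalytically inactive partner of the de novo methyltransferases, stood at 2.20, 2.08 and 2.34 CPM in wild type and 7.02, 4.32 and 7.28 CPM in 9-D. SUSD2, a surface marker of naive cells, went the other way and stood at 18.1, 15.4 and 15.9 CPM in wild type and 10.9, 12.1 and 12.1 CPM in 9-D. KLF5, ZFP57, ALPPL2, IL6ST and GBX2 were not called.

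Of 20 genes of the primed and formative state 12 were lower and 5 higher, with a median of -0.22. OTX2, a factor of the primed epiblast and forebrain, stood at 66.5, 63.5 and 64.0 CPM in wild type and 42.3, 50.6 and 46.3 CPM in 9-D. ZIC2 stood at 273, 234 and 239 CPM in wild type and 179, 194 and 199 CPM in 9-D. POU3F1, also called OCT6, stood at 28.6, 26.4 and 23.6 CPM in wild type and 13.6, 12.5 and 14.1 CPM in 9-D. All 3 were lower in every library of 9-D. PRTG, a surface protein of the early embryo, stood at 28.4, 32.0 and 21.2 CPM in wild type and 9.62, 10.1 and 8.07 CPM in 9-D, a log2 fold change of -1.55 (SE 0.121). PTPRZ1, a receptor phosphatase, stood at 531, 520.0 and 546 CPM in wild type and 415, 414 and 377 CPM in 9-D. The 5 members that were called higher were SALL2, VCAN, FGF2, USP44 and FZD7. The call of SALL2 was lost without wild-type replicate 2, and that of USP44 without wild-type replicate 1 or 2 or 9-D replicate 1 or 2 and with upper-quartile scaling, with adjusted p of up to 0.0614 and 0.156 in edgeR (quasi-likelihood, Benjamini-Hochberg). VCAN, the proteoglycan versican, stood at 1088, 1157 and 1232 CPM in wild type and 1697, 1478 and 1395 CPM in 9-D.

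**Figure D4:**
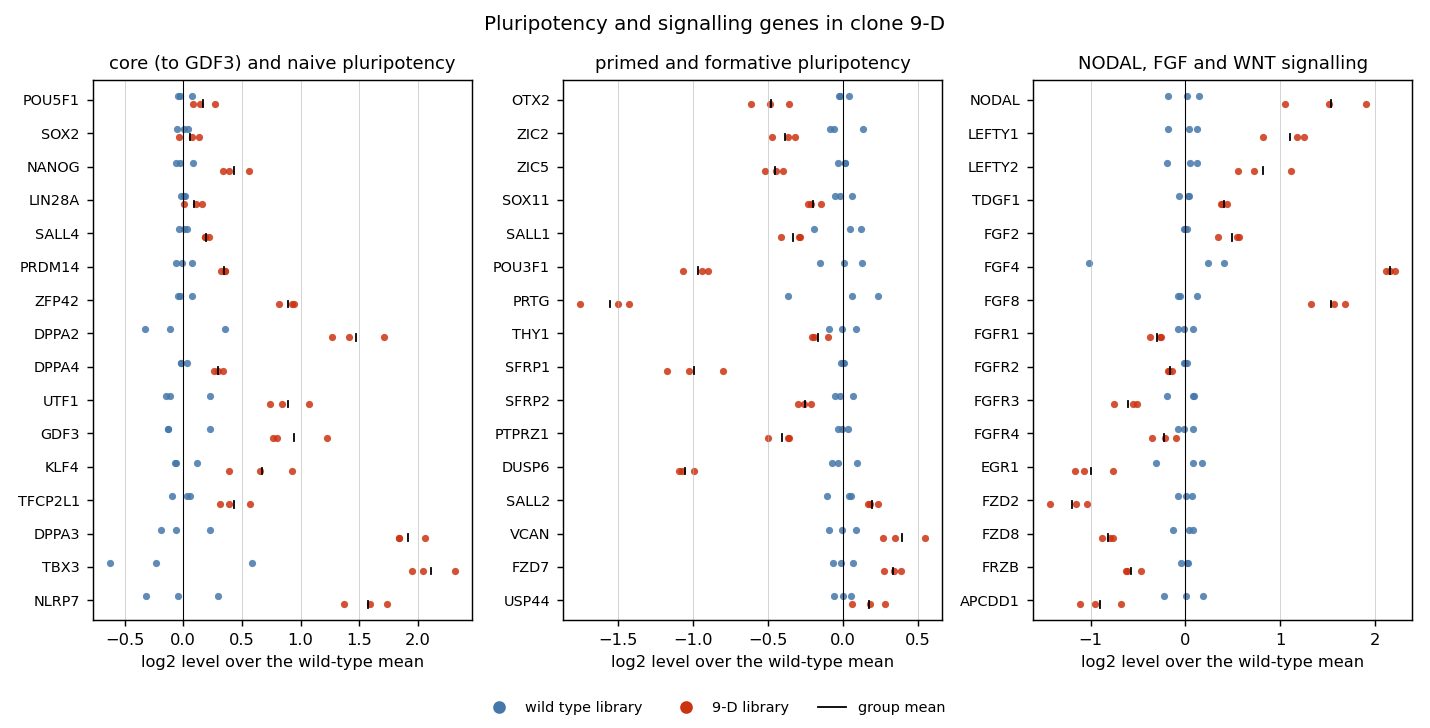
Log2 of the level in each library over the wild-type mean, for wild type (blue) and 9-D (red), with the 9-D mean as a black tick, in 16 genes of core and naive pluripotency (left), 16 of primed and formative pluripotency (middle) and 16 of NODAL, FGF and WNT signalling (right). Genes with red points to the right of all blue points include NANOG, ZFP42, NODAL and FGF2, and those to the left include OTX2, PRTG, FGFR3 and FZD2.

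In NODAL signalling, which keeps primed cells pluripotent and patterns the gastrula, 12 of 28 tested genes were higher and 3 lower, with a median of 0.16. The ligand NODAL stood at 11.4, 13.1 and 14.3 CPM in wild type and 48.7, 26.9 and 37.0 CPM in 9-D, a log2 fold change of 1.54 (SE 0.146). Its inhibitor LEFTY1, which is also its target, stood at 23.9, 29.6 and 27.9 CPM in wild type and 64.9, 48.1 and 61.6 CPM in 9-D. LEFTY2, of the same kind, stood at 12.1, 14.4 and 15.1 CPM in wild type and 30.2, 20.5 and 22.9 CPM in 9-D. In all 3 the lowest library of 9-D was above the highest of wild type, replicate 1 was the highest of 9-D and replicate 2 the lowest. The ligand GDF3 stood at 11.3, 14.5 and 11.3 CPM in wild type and 29.1, 21.1 and 21.5 CPM in 9-D. Among receptors, ACVR1B, the type I activin receptor, stood at 57.3, 55.6 and 55.2 CPM in wild type and 36.7, 37.6 and 34.0 CPM in 9-D, while ACVR2A and ACVR2B were not called. SKIL, a feedback repressor of SMAD proteins, stood at 139.6, 156 and 144 CPM in wild type and 262, 234 and 198 CPM in 9-D. SMAD2, SMAD3 and SMAD4 were not called.

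In FGF signalling 4 ligand genes were called higher and the 4 FGFR genes lower, while the ligand FGF17 and the co-receptor KLB were not called. FGF2, the ligand these cells need, stood at 209, 206 and 211 CPM in wild type and 309.7, 303 and 265 CPM in 9-D. FGF4 stood at 0.259, 0.692 and 0.617 CPM in wild type and 2.26, 2.34 and 2.43 CPM in 9-D. FGF8 stood at 2.40, 2.35 and 2.71 CPM in wild type and 7.98, 6.23 and 7.40 CPM in 9-D. These 3 ligands were higher in each library of 9-D than in any of wild type. FGF19, which signals through FGFR4, stood at 18.2, 18.1 and 18.8 CPM in wild type and 35.3, 32.1 and 34.6 CPM in 9-D. Among the receptors the log2 fold change was -0.30 for FGFR1, -0.16 for FGFR2, -0.60 for FGFR3 and -0.22 for FGFR4. FGFR3 stood at 66.8, 54.9 and 65.9 CPM in wild type and 37.1, 42.8 and 43.8 CPM in 9-D. The FGFR4 call was lost without wild-type replicate 2 or 9-D replicate 1, with adjusted p of up to 0.128 in edgeR (quasi-likelihood, Benjamini-Hochberg). The FGFR2 call was lost without any 1 of the wild-type libraries, without 9-D replicate 1 or 2, in a fit of the 6 libraries alone and without the filter on low counts, with adjusted p of up to 0.123 in edgeR (quasi-likelihood, Benjamini-Hochberg). DUSP6, a phosphatase that ERK signalling induces and that shuts ERK off, stood at 127, 142 and 129.8 CPM in wild type and 62.5, 66.9 and 63.2 CPM in 9-D. EGR1, an immediate early target of ERK, stood at 21.97, 16.7 and 23.4 CPM in wild type and 9.22, 12.2 and 9.83 CPM in 9-D. The ETS factors ETV5 and ETV4, both ERK targets, had log2 fold changes of -0.37 and 0.36, while SPRY2, SPRY4 and DUSP4 were not called. Over the whole list of 28 genes 9 were higher and 9 lower. Besides the ligands and ETV4, the members called higher were MYC, CCND1, DUSP5 and SPRY1. The calls of DUSP5 and SPRY1 were lost in 3 and 9 of the 13 alternatives. IER3 and SHISA2 were also called lower, and the IER3 call was lost in 3 alternatives.

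Of 28 tested genes of WNT signalling 13 were lower and 4 higher, with a median of -0.27. Among the falls, the calls of NKD1, TCF7L1, FZD1, FZD3, FZD6, FZD9 and WNT5A were each lost in 1 to 5 of the 13 alternatives. DESeq2 called 10 lower and 4 higher. The secreted WNT antagonist SFRP1 stood at 1417, 1437 and 1429.5 CPM in wild type and 635, 820.5 and 702 CPM in 9-D, a log2 fold change of -0.99 (SE 0.0654). FRZB, another antagonist of the family, stood at 17.8, 18.0 and 17.0 CPM in wild type and 11.4, 11.5 and 12.7 CPM in 9-D. The receptor FZD2 stood at 123, 111 and 118 CPM in wild type and 43.6, 52.9 and 57.2 CPM in 9-D. Each of these 3 was lower in every library of 9-D than in any of wild type. FZD8, another receptor, stood at 28.9, 24.8 and 27.9 CPM in wild type and 14.8, 15.7 and 16.02 CPM in 9-D. FZD7, described as the main frizzled receptor of these cells, went up and stood at 754, 825 and 780.4 CPM in wild type and 998, 954 and 1029 CPM in 9-D. APCDD1, an inhibitor that WNT signalling induces, stood at 6.94, 6.16 and 5.24 CPM in wild type and 2.83, 3.82 and 3.16 CPM in 9-D. AXIN2, a feedback target, had a log2 fold change of 0.24, a call lost without wild-type replicate 3 (adjusted p of 0.144 in edgeR (quasi-likelihood, Benjamini-Hochberg)). SP5, RNF43 and LGR5, other WNT targets, were not called. In the BMP list 3 of 17 genes were higher and 3 lower, or 35.3%, against 23.4% of all autosomal genes tested. Without 9-D replicate 2, 3 calls were made in the list. The ligand BMP4 stood at 8.23, 8.23 and 8.26 CPM in wild type and 12.4, 11.1 and 13.1 CPM in 9-D. ID1, a BMP target, stood at 59.96, 62.3 and 68.1 CPM in wild type and 73.9, 82.9 and 90.4 CPM in 9-D.

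Levels of markers of other lineages differed between genes, and some of the markers moved. Of 14 tested primitive streak genes 3 were higher and 2 lower. T, also called brachyury, stood at 0.778, 1.245 and 0.555 CPM in wild type and 1.245, 0.425 and 0.243 CPM in 9-D. EOMES, a T-box factor of the streak, stood at 1.62, 1.66 and 1.17 CPM in wild type and 2.94, 0.921 and 0.364 CPM in 9-D. MIXL1, a homeobox factor of the streak, stood at 3.50, 4.29 and 2.47 CPM in wild type and 6.23, 2.69 and 2.73 CPM in 9-D. The groups overlapped in these 3, none was called, and replicate 1 was the highest of the 9-D libraries in each, as it was in NODAL and LEFTY1. The summed level of the list was 71.2 to 80.1 CPM in wild type and 75.6 to 119.8 CPM in 9-D. FOXA2, a factor of the streak and endoderm, stood at 0.648, 0.346 and 0.370 CPM in wild type and 2.09, 1.20 and 1.46 CPM in 9-D.

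Among endoderm genes 5 of 8 were higher and 1 lower, at a summed level of 57.6 to 63.2 CPM in wild type and 52.0 to 58.3 CPM in 9-D. The calls of GATA6 and PRDM1 as higher were lost in 3 and 4 of the 13 alternatives. RHOBTB3 was the member called lower. AFP, alpha-fetoprotein of the yolk sac and liver, stood at 2.33, 1.38 and 2.22 CPM in wild type and 5.04, 2.55 and 4.43 CPM in 9-D, and CXCR4 and FOXA3 were not called. Of 9 mesoderm genes 3 were higher and 1 lower, at a summed level of 262 to 290.2 CPM in wild type and 302 to 309 CPM in 9-D. PDGFRA, a receptor of early mesoderm and endoderm, stood at 4.08, 4.43 and 4.07 CPM in wild type and 10.7, 9.49 and 9.83 CPM in 9-D. GATA2, a factor of blood and trophoblast, stood at 0.519, 0.484 and 0.678 CPM in wild type and 1.92, 2.48 and 2.67 CPM in 9-D. Of 9 trophoblast and amnion genes 3 were higher and 2 lower, at a summed level of 188 to 197 CPM in wild type and 207 to 217 CPM in 9-D. TFAP2C, which is also a factor of naive cells, stood at 5.70, 4.98 and 6.29 CPM in wild type and 17.7, 12.2 and 13.7 CPM in 9-D. ELF5 and KRT23 had no counts in the 6 libraries, and GATA3 was not called, at 0.389, 0.138 and 0.678 CPM in wild type and 0.905, 0.567 and 0.728 CPM in 9-D. The part of such cells in the rises of NODAL, FGF4, FGF8 and FOXA2 was not tested.

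Nerve and neural genes moved both ways. Of 15 tested neuroectoderm and neuron genes 3 were higher and 4 lower, with a median of -0.50 and a summed level of 743 to 814 CPM in wild type and 820.2 to 900.5 CPM in 9-D. Without the filter on low counts, 11 were called. FEZF1, a forebrain factor, stood at 48.7, 36.2 and 42.9 CPM in wild type and 26.7, 28.1 and 32.2 CPM in 9-D. NCAM1, a neural adhesion molecule, stood at 20.5, 20.9 and 22.5 CPM in wild type and 8.72, 8.36 and 9.16 CPM in 9-D. MAP2, a dendrite microtubule protein, stood at 32.0, 28.9 and 32.5 CPM in wild type and 16.02, 17.6 and 15.8 CPM in 9-D. These were lower in every library of 9-D, whereas TUBB3, a neuronal tubulin, stood at 277, 245 and 288 CPM in wild type and 402, 405 and 460.1 CPM in 9-D. PAX6 was not called, at 1.62, 1.31 and 2.28 CPM in wild type and 1.30, 0.637 and 1.09 CPM in 9-D. Of 10 neural crest genes 4 were higher and 2 lower, at a summed level of 264 to 279 CPM in wild type and 296 to 305 CPM in 9-D. Of 14 fibroblast and feeder genes 2 were higher and 6 lower. DCN and FAP, which define fibroblasts, had no counts, and the summed level of the fibroblast list was 1355 to 1425 CPM in wild type and 1369 to 1501 CPM in 9-D. COL1A1, the fibrillar collagen chain, stood at 154, 178 and 158 CPM in wild type and 241, 256 and 272 CPM in 9-D. PDGFRB, a receptor of mural cells and fibroblasts, stood at 27.1, 24.4 and 30.04 CPM in wild type and 16.5, 16.8 and 17.7 CPM in 9-D.

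Heparan sulfate, the sugar chain of cell surface proteoglycans that presents FGF and WNT ligands, has been described as under control of ZNF263 in other cells. Of 32 tested genes of its synthesis and core proteins 13 were lower and 2 higher, against 12.2% and 11.2% of all genes, with a median of -0.10. B3GAT3, which builds the linker of the chain, stood at 39.0, 42.1 and 34.5 CPM in wild type and 23.5, 24.01 and 28.8 CPM in 9-D. GLCE, the epimerase that turns glucuronic into iduronic acid, stood at 27.9, 26.8 and 25.6 CPM in wild type and 19.4, 22.2 and 18.4 CPM in 9-D. Both were lower in all 3 libraries of 9-D. The core protein perlecan, HSPG2, stood at 314, 258 and 287 CPM in wild type and 213, 188 and 195 CPM in 9-D. Agrin, AGRN, stood at 689, 633 and 667 CPM in wild type and 524, 508 and 548 CPM in 9-D. The membrane-anchored glypican GPC6 stood at 52.4, 57.4 and 58.3 CPM in wild type and 43.1, 38.5 and 37.3 CPM in 9-D. These core proteins too were lower in every library of 9-D. The polymerases EXT1 and EXT2 and the sulfotransferases NDST1, HS2ST1 and HS6ST1 were not called. HS3ST1, a sulfotransferase described as a target of ZNF263, was not called either, at 2.14, 1.59 and 1.91 CPM in wild type and 2.09, 3.05 and 2.61 CPM in 9-D. HS3ST2 and SULF2 were the 2 members called higher. The SULF2 call was lost without wild-type replicate 2, and the HS3ST2 call in 7 of the 13 alternatives, among them without wild-type replicate 1 or 3 or 9-D replicate 2 or 3, with adjusted p of up to 0.123 and 0.270 in edgeR (quasi-likelihood, Benjamini-Hochberg).

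Of 34 tested genes of Polycomb complexes and DNA methylation 7 were higher and 4 lower, or 32.4%, against 23.4% of all autosomal genes. Without 9-D replicate 1, 7 calls in all were left in this list. PHC2, a subunit of Polycomb repressive complex 1, stood at 26.0, 19.2 and 19.4 CPM in wild type and 7.02, 10.3 and 8.92 CPM in 9-D. Its paralogue PHC1 had a log2 fold change of 0.21, a call lost without wild-type replicate 2 (adjusted p of 0.143 in edgeR (quasi-likelihood, Benjamini-Hochberg)). EZH2 and SUZ12, of Polycomb repressive complex 2, and DNMT1, TET1 and DNMT3A were not called. KDM2B, which brings Polycomb to CpG islands, stood at 144, 132 and 144 CPM in wild type and 181, 173 and 180.0 CPM in 9-D. UHRF1, which directs maintenance methylation, stood at 85.7, 75.7 and 76.3 CPM in wild type and 63.1, 62.9 and 66.5 CPM in 9-D.

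Stress response genes, of the integrated stress response and the unfolded protein response, rose by small amounts. Of 28 tested, 22 were higher and 0 lower, with a median of 0.27, and 0 were called at 2-fold or more. ATF4, the factor of the integrated stress response, stood at 413, 438 and 433 CPM in wild type and 493, 505 and 516 CPM in 9-D. Its target CHAC1, a glutathione-degrading enzyme, stood at 26.2, 21.5 and 26.6 CPM in wild type and 35.9, 35.8 and 41.9 CPM in 9-D. DDIT3, also called CHOP, stood at 4.15, 4.36 and 5.80 CPM in wild type and 9.51, 7.15 and 7.77 CPM in 9-D. All 3 were higher in every library of 9-D than in any of wild type. The amino acid transporter SLC7A5 stood at 816, 823 and 932 CPM in wild type and 1207, 1042 and 1166 CPM in 9-D. XBP1, a factor of the unfolded protein response, rose by 0.33 and the chaperone CALR, calreticulin, by 0.29 on the log2 scale. PHGDH, HSP90B1, DNAJB9, EDEM1, SEL1L and DDIT4 were not called.

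CDKN1A, a cell cycle inhibitor, stood at 11.99, 11.7 and 11.04 CPM in wild type and 14.3, 15.4 and 17.8 CPM in 9-D. GDF15, a stress-induced cytokine, stood at 2.07, 3.94 and 4.32 CPM in wild type and 7.64, 6.02 and 7.40 CPM in 9-D. Both were higher in every library of 9-D than in any of wild type. Of 30 genes of the G2 and M phases 6 were higher and 3 lower, with MKI67 and CDK1 not called. PLK1, a mitotic kinase, stood at 188, 174 and 192 CPM in wild type and 237, 238 and 252 CPM in 9-D. CDC25B, a phosphatase that starts mitosis, stood at 60.9, 59.99 and 61.2 CPM in wild type and 42.6, 43.8 and 44.5 CPM in 9-D. Of 24 tested histone genes of replication 2 were higher, and 0 were called without wild-type replicate 1 or 9-D replicate 1 or by DESeq2. In the immediate early and heat shock list 5 of 25 were higher and 4 lower, and the chaperone genes HSPA1A and HSPA1B, near-identical copies that can share reads, were called lower and higher. The HSPA1A call was lost in 8 of the 13 alternatives, among them without wild-type replicate 2 or 3 or any 1 of the 9-D libraries, with adjusted p of up to 0.182 in edgeR (quasi-likelihood, Benjamini-Hochberg).

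Glycolysis, lipid and translation genes moved within narrow bounds. Of 31 hypoxia and glycolysis genes 10 were higher and 1 lower, and 7 calls were made in all without wild-type replicate 3. PKM, pyruvate kinase, stood at 754, 795 and 785 CPM in wild type and 992, 1040.3 and 1056 CPM in 9-D. PFKP, the platelet type of phosphofructokinase, stood at 157, 156 and 154 CPM in wild type and 222, 215 and 223 CPM in 9-D. VEGFA, a growth factor for vessels that hypoxia induces, stood at 48.9, 48.5 and 50.6 CPM in wild type and 66.2, 66.1 and 70.7 CPM in 9-D. PKM, PFKP and VEGFA were higher in every library of 9-D, while GAPDH, ENO1, HK2 and PDK1 were not called. Of 30 cholesterol and lipid synthesis genes 5 were higher and 1 lower, near the share of all genes, and 10 were called without 9-D replicate 2 or without the filter on low counts. LSS, lanosterol synthase, stood at 274, 261 and 271 CPM in wild type and 338, 297 and 328 CPM in 9-D, a log2 fold change of 0.25 (SE 0.0571), while SQLE was not called.

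Of 79 tested cytosolic ribosomal protein genes 47 were higher and 0 lower, with a median of 0.18. Without 9-D replicate 3, 31 were called. RPL27 stood at 408, 366 and 414 CPM in wild type and 483, 511 and 508 CPM in 9-D. RPL22L1, a paralogue of RPL22, stood at 56.8, 65.8 and 61.9 CPM in wild type and 79.7, 84.7 and 76.5 CPM in 9-D. Their summed level was 44848 to 46158 CPM in wild type and 48727 to 53196 CPM in 9-D, and processed pseudogenes of this family can share reads with the genes. Of 76 tested nuclear-encoded genes of oxidative phosphorylation 15 were higher and 1 lower, or 21.1%, near the 23.4% of all autosomal genes. The total of 16 fell to 6 without wild-type replicate 1, to 8 without wild-type replicate 3 or 9-D replicate 3 or with upper-quartile scaling, and to 10 without 9-D replicate 2. FTH1, the ferritin heavy chain that stores iron, stood at 803, 790.1 and 826 CPM in wild type and 990.4, 994 and 1099 CPM in 9-D.

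Transcripts that start in long terminal repeats of endogenous retrovirus H mark human pluripotent cells. Of 7 tested, 6 were higher and 0 lower, with a median of 1.23. HHLA1 stood at 19.2, 21.5 and 21.3 CPM in wild type and 86.5, 77.0 and 79.9 CPM in 9-D. LINC-ROR, a long noncoding RNA studied in reprogramming, stood at 2.92, 3.46 and 4.19 CPM in wild type and 15.1, 13.03 and 13.8 CPM in 9-D. LINC01108 stood at 8.04, 7.75 and 10.5 CPM in wild type and 62.4, 41.5 and 49.8 CPM in 9-D. These 3 were at least 2-fold higher, with log2 fold changes of 1.97, 1.99 and 2.54. ABHD12B stood at 12.7, 13.5 and 13.8 CPM in wild type and 31.1, 29.4 and 33.1 CPM in 9-D. ESRG, an abundant transcript of this class, stood at 1050.0, 893 and 1114 CPM in wild type and 1198, 1210.4 and 1301 CPM in 9-D. LINC00678 was the member not called, at 129.7, 129.8 and 136 CPM in wild type and 122, 132 and 132 CPM in 9-D.

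SERPINB9, an inhibitor of granzyme B, stood at 78.8, 73.1 and 73.2 CPM in wild type and 289, 270.1 and 262 CPM in 9-D, a log2 fold change of 1.87 (SE 0.0605). SERPINB3 stood at 0.130, 0.415 and 0.555 CPM in wild type and 2.43, 2.97 and 2.37 CPM in 9-D. SERPINB4, a near-identical copy that can share its reads, stood at 0.972, 1.11 and 1.79 CPM in wild type and 6.90, 6.59 and 6.98 CPM in 9-D. The groups were apart in all 3, which was a condition of their choice. Of 6 tested clade B serpins 4 were higher and 1 lower, and 3 calls were made without wild-type replicate 1 or 3, without 9-D replicate 1 or 3, or by DESeq2. Of 9 tested S100 genes, which encode calcium-binding proteins, 1 was higher and 1 lower. S100A6 stood at 5.12, 4.70 and 4.19 CPM in wild type and 1.02, 0.425 and 0.546 CPM in 9-D, a log2 fold change of -2.76 (SE 0.280). S100A10, a membrane-bound member, stood at 45.6, 39.8 and 49.2 CPM in wild type and 77.0, 74.7 and 82.2 CPM in 9-D. Adjusted p was 3.15e-23 for SERPINB9 and 8.74e-10 for S100A6 in edgeR (quasi-likelihood, Benjamini-Hochberg).

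Of 53 tested clustered protocadherins, cell recognition proteins chosen in part by the promoter of each variable exon, 9 were higher and 11 lower. PCDHB5 stood at 8.82, 11.8 and 9.13 CPM in wild type and 35.9, 39.8 and 41.6 CPM in 9-D, a log2 fold change of 1.98 (SE 0.0992). PCDHB16 stood at 35.8, 33.6 and 34.5 CPM in wild type and 16.6, 21.0 and 17.5 CPM in 9-D. Members of the beta cluster were thus called in both directions. PCDHGC4, of the gamma cluster, stood at 5.57, 4.22 and 3.70 CPM in wild type and 1.08, 1.35 and 1.27 CPM in 9-D. Of 20 tested neuropeptide and secretory granule genes 4 were higher and 7 lower. TAC3, the precursor of neurokinin B, stood at 7.0002, 7.61 and 7.22 CPM in wild type and 2.60, 1.98 and 1.88 CPM in 9-D. PCSK2, a prohormone convertase, stood at 4.41, 4.15 and 3.89 CPM in wild type and 1.75, 2.41 and 1.70 CPM in 9-D. Both were lower in every library of 9-D. VGF, a secreted granule protein, stood at 40.1, 36.0 and 37.2 CPM in wild type and 71.4, 73.7 and 72.6 CPM in 9-D. TAC1, the precursor of substance P, stood at 3.63, 5.604 and 4.56 CPM in wild type and 8.26, 8.78 and 8.92 CPM in 9-D.

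Of 33 genes of epithelial and mesenchymal adhesion 9 were higher and 8 lower, with CDH1, CDH2, EPCAM and OCLN not called. Among the tight junction claudins the log2 fold change was 0.32 for CLDN7, -0.51 for CLDN3 and -0.30 for CLDN6. ZEB2, a repressor of epithelial genes, stood at 4.34, 5.26 and 3.21 CPM in wild type and 1.30, 1.49 and 1.82 CPM in 9-D. FBN2, fibrillin 2 of the matrix, stood at 113, 116 and 116 CPM in wild type and 39.1, 42.3 and 34.4 CPM in 9-D, a log2 fold change of -1.58 (SE 0.0718). FAT1, an atypical cadherin, stood at 439.9, 422 and 451 CPM in wild type and 317, 307 and 282 CPM in 9-D. All of ZEB2, FBN2 and FAT1 were lower in each library of 9-D. LARP7, which binds the small nuclear RNA of the transcription elongation control complex, stood at 535, 596 and 524 CPM in wild type and 412, 426 and 387 CPM in 9-D.

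Of 40 interferon-induced genes and RNA sensors 8 were higher and 6 lower. IFITM1, a membrane protein that blocks virus entry, stood at 164, 147 and 174 CPM in wild type and 286, 284 and 321 CPM in 9-D. BST2, which tethers virus particles, stood at 32.4, 38.1 and 33.1 CPM in wild type and 9.96, 18.6 and 13.5 CPM in 9-D. ISG15, IFI6, MX1 and IFIT1 were not called. Of 30 imprinted genes 4 were higher and 5 lower, and MEG8, MKRN3, PEG3 and ZIM2 had no counts. DLK1, a paternally expressed growth regulator, stood at 7.32, 3.53 and 3.89 CPM in wild type and 1.08, 1.63 and 1.03 CPM in 9-D. Of 18 tested genes of the segment of the long arm of chromosome 20 that is often duplicated in cultured stem cells, 4 were higher and 3 lower with a median of -0.08. BCL2L1, the survival gene of that segment, stood at 50.8, 47.0 and 48.1 CPM in wild type and 64.1, 60.3 and 63.8 CPM in 9-D. Of 14 shelterin and telomerase genes 1 was higher and 1 lower, and 1 call, TERF1, was left without wild-type replicate 1. TERT was not called, at 33.7, 30.6 and 33.0 CPM in wild type and 28.5, 25.6 and 31.4 CPM in 9-D.

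Clone 9-D and clone 9-1 differed from each other in few genes. In a test of the difference between them, 36 of 14577 autosomal genes were called (0.247%), 17 higher and 19 lower in 9-D, and 951 had an unadjusted p under 0.05 in edgeR's quasi-likelihood test. Of the 36, 25 were also called in 9-D against wild type. In 15 of the 36 the mean of 9-D lay between those of wild type and 9-1. The number fell to 17 without 9-D replicate 2 or 9-1 replicate 2, to 20 without 9-D replicate 3 and to 21 without 9-1 replicate 1 or 3.

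TERF1, the shelterin protein TRF1 that binds telomere repeats, was called in both comparisons. It stood at 497, 562 and 503 CPM in wild type, 362, 368 and 338 CPM in 9-D and 94.4, 96.6 and 89.2 CPM in 9-1. The 3 groups did not overlap, with 9-D between wild type and 9-1. The log2 fold change was -0.55 (SE 0.0576) against wild type and 1.93 (SE 0.0617) against 9-1, with adjusted p of 1.91e-09 and 2.03e-23 in edgeR (quasi-likelihood, Benjamini-Hochberg). SBSPON, a matrix protein gene that lies next to TERF1 among the tested genes of chromosome 8, stood at 8.62, 8.79 and 7.22 CPM in wild type, 6.17, 5.95 and 6.07 CPM in 9-D and 3.49, 2.72 and 2.20 CPM in 9-1. Its call against wild type was lost without wild-type replicate 1 or 2, without any 1 of the 9-D libraries and by DESeq2.

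GDA, which was close to silent in wild type, stood at 15.7, 17.1 and 15.2 CPM in 9-D and 23.2, 22.1 and 21.3 CPM in 9-1, so that both clones were far above wild type and 9-D below 9-1. SERPINB9 stood at 289, 270.1 and 262 CPM in 9-D and 364, 376 and 352 CPM in 9-1. DPEP3 stood at 16.5, 20.5 and 19.2 CPM in 9-D and 13.2, 11.03 and 10.5 CPM in 9-1. PRKCDBP stood at 18.3, 22.2 and 19.2 CPM in 9-D and 13.01, 12.8 and 15.0 CPM in 9-1. In DPEP3 and PRKCDBP, 9-D was the higher clone. DPP6, a potassium channel accessory protein, stood at 11.5, 11.97 and 12.03 CPM in wild type, 15.8, 15.3 and 15.5 CPM in 9-D and 10.8, 11.9 and 11.6 CPM in 9-1, so that 9-D alone stood above wild type. TSPEAR-AS1, an antisense gene of chromosome 21, stood at 6.55, 6.23 and 3.82 CPM in wild type, 2.66, 3.12 and 3.46 CPM in 9-D and 6.32, 5.63 and 6.52 CPM in 9-1, so that 9-D was the lowest of the 3 groups.

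**Figure D5:**
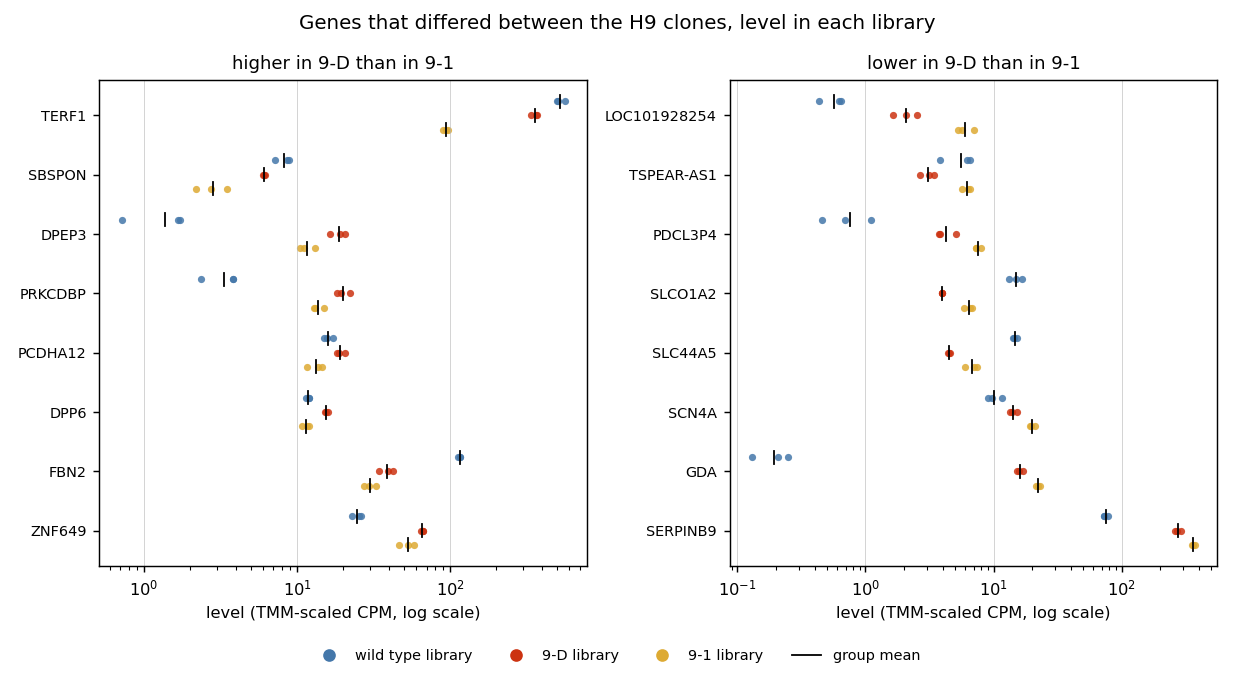
Level in each library of wild type (blue), 9-D (red) and 9-1 (yellow), in TMM-scaled CPM on a log axis with the group mean as a black tick. Shown are 8 genes higher in 9-D than in 9-1 (left) and 8 lower (right). All were also called in 9-D against wild type, with a mean of at least 5 CPM in the higher clone. They were chosen among genes whose libraries of 9-D and 9-1 do not overlap. Among the 16 genes TERF1 shows the widest gap between the clones, at a log2 fold change of 1.93.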

How the data were processed

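RNA sequencing counts per gene were deposited by the authors in 1 table of the H9 libraries. Per the submitters' processing notes, reads were processed with STAR, featureCounts and DESeq2 on hg19; versions, and whether strand was used, are not given in the sources used here. The deposited values are raw counts and were not changed before testing. The authors' deposited result tables were not used here. Of 27130 gene symbols, 25687 matched RefSeq genes of GRCh38.p14, 24340 by symbol and 1347 by an older name, and 24478 lay on autosomes. RefSeq gave names, chromosomes and neighbours, and the promoter windows printed.

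The 3 libraries each of H9 wild type, clone 9-D and clone 9-1 were fitted together in edgeR 4.0.16 (R 4.3.3, limma 3.58.1), with a low-count filter (filterByExpr), TMM scaling, the quasi-likelihood test and Benjamini-Hochberg adjustment over all 15411 genes kept, of which 14577 were autosomal. The threshold was 0.05 on adjusted p. Contrasts were 9-D against wild type and 9-D against 9-1. The script was tested on simulated data. Alternatives were RLE or upper-quartile scaling, DESeq2 1.42.0, no filter, a filter of 1 CPM in 3 libraries, a replicate block, the 6 libraries alone, and each library left out. Confidence intervals are exact and at 95%; they and the limit of 3 counts cover counting error only.

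The gene lists and the comparison were chosen with earlier results of these data known, so counts in a list are no independent evidence. Genes named by rule were, first, ZNF263, POU5F1, NANOG, SOX2, LIN28A and DNMT3B. Next were the 12 largest changes in each direction among called genes with groups apart and a mean of at least 5 CPM in the higher group. Then came the 6 with most counts in each direction that were at 3 or fewer counts in 1 group and at least 60 in the other. Each list gave up to 4 members, those with the largest changes among called members whose groups did not overlap. For these list members, groups that lie apart were thus a condition of the choice. From the comparison with 9-1 came the 8 largest differences in each direction among genes called there and against wild type. In these the clones were apart and the mean was at least 5 CPM in the higher clone. Last were the 6 most abundant called genes in each direction that changed at least 1.25-fold. Other genes were chosen after their values were seen.

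Some genes are not reported here.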

Additional observations from a re-analysis of the deposited data

Results flagged for a closer look

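Clone 9-D differed from clone 9-1 in 36 autosomal genes by a test of that difference in edgeR (quasi-likelihood, Benjamini-Hochberg), and the 16 genes below are the 8 largest differences in each direction among those that were also called in 9-D against wild type, had clones that did not overlap and had a mean of at least 5 CPM in the higher clone. Values are log2 fold changes of 9-D over 9-1. TERF1, a telomere-binding protein gene, was higher in 9-D by 1.93. SBSPON, its neighbour among the tested genes, was higher by 1.12, and its call against wild type was lost in 6 of 13 alternatives. DPEP3 was higher by 0.70 and PRKCDBP by 0.55. PCDHA12, a protocadherin of the alpha cluster, was higher by 0.52. Its call against wild type, at an adjusted p of 0.0442 in edgeR (quasi-likelihood, Benjamini-Hochberg), was lost with upper-quartile scaling, by DESeq2, without wild-type replicate 1 or 3 and without 9-D replicate 1, at adjusted p of up to 0.171. DPP6 was higher by 0.44, FBN2 by 0.36 and ZNF649 by 0.32.

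LOC101928254, a noncoding gene, was lower in 9-D, at -1.51. TSPEAR-AS1 stood at -0.99. PDCL3P4, a pseudogene, stood at -0.83. SLCO1A2 stood at -0.70 and SLC44A5, a choline transporter-like gene, at -0.61. SCN4A, the sodium channel of skeletal muscle, stood at -0.49. GDA stood at -0.47 and SERPINB9 at -0.41.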

How the results depend on the processing

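For 9-D against wild type, 3412 calls became 3424 with RLE scaling, 3384 with upper-quartile scaling, 2889 with DESeq2 without the low-count filter, 3471 without a filter, 3383 with the stricter filter, 3177 with the 6 libraries alone, and 2669 to 3176 with 1 library left out. Upper-quartile scaling lowered the share of calls that were higher from 47.7% to 40.6%. The replicate block gave 3701 calls, of which 3396 were among the 3412, and 41 for 9-D against 9-1. Deviations of same-numbered libraries correlated at -0.03 to 0.06, and 1 of 3 libraries of 9-D correlated best with its own number. These values gave no sign of pairing by number, but 3 libraries per group are too few to exclude a shared batch. No named gene lost its call with the block. For 9-D against 9-1, 36 calls became 17 to 44 with 1 library left out, 29 with DESeq2 without the low-count filter and 50 without a filter. For ZNF263 the log2 fold change ran from -0.19 without wild-type replicate 2 to -0.27 with 1 library left out. Of 173 called genes named by rule, 145 were called in all 13 alternatives. The median of the imprinted list changed sign without the filter, from -0.02 to 0.00. Fewer libraries and fewer tested genes enter some alternatives, and otherwise the cause of a lost call was not tested. Depth limited genes under 0.212 CPM, where 3 counts or fewer were left in a library.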
